A study of Mus musculus with 12 samples.

Results

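The genes described here are 10 regulators of multiciliation, the programme that builds many motile cilia on 1 cell: Gmnc, Mcidas, Myb, Foxj1, Rfx2, Rfx3, Ccno, Deup1, Ccdc78 and Cdc20b. They were chosen by name, with earlier results of these data known. Every array probe whose RefSeq accession maps to one of them was taken. Of the 10 genes, 9 had such a probe, 13 probes in all among 39429 on the array, and none was matched to Cdc20b. The test across the array held 8 of the 10 genes among 25035 genes, since the Gmnc probe was too dim to be kept.

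The data come from 1-colour Agilent microarrays of RNA from 2 testis cell fractions taken from 6 male mice of strain C57BL/6J. Each mouse gave both fractions, hence 12 arrays. One fraction is labelled germ cells (titled as a germ cell pellet) and the other Sertoli cells, the somatic cells that nurse the germ cells. Mice 120, 86 and 72 are labelled knockouts of TAp73, the form of the p53 family member Trp73 that carries the transactivation domain. Mice 99, 73 and 74 are controls that the source names call wildtype, although the titles call mice 73 and 74 het and only mouse 99 WT. The ages given are 4 months for mouse 120, 5 months for mouse 99 and 8 months for the rest. No treatment is given. How the knockout was made, and how the fractions were separated, is not given in the sources used here.

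Multiciliated cells line the airway, the brain ventricles, the oviduct and the efferent ducts that drain the testis. Gmnc and Mcidas are coiled-coil proteins of the geminin family that act with E2f4 or E2f5 at the top of the programme, and TAp73 acts among the early transcription factors. Myb, Foxj1, Rfx2 and Rfx3 then switch on centriole and axoneme genes, while Deup1, Ccdc78, Ccno and Cdc20b serve the mass production of centrioles that become the bases of the cilia. Germ cells make no multiple cilia, but a spermatid builds 1 flagellum with much of the same axonemal machinery.

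Levels below are log2 of the processed spot signal minus the 75th percentile of the same array, so that 0 is the 75th percentile. Levels of different probes are not set against each other, because probes differ in brightness. The 75th percentile itself ran from 1355 signal units on the control Sertoli array of mouse 74 to 5350, and the next lowest was 2863. Of all probes, 73.3% to 78.9% were well above background on the germ arrays and 64.1% to 68.4% on the Sertoli arrays. The number of arrays limits the precision, and replicates are separate mice. The targeted gene, Trp73, gave signal well above background on all 12 arrays. Its level in germ cells was -1.91, -2.79 and -2.35 in knockout mice 120, 86 and 72 and -4.28, -3.10 and -2.68 in control mice 99, 73 and 74, and in the Sertoli fraction -2.91, -2.82 and -2.72 against -3.56, -4.01 and -2.13. This probe was not lower in the arrays labelled knockout, and where it lies relative to the deleted part is not given, so it checks nothing about the deletion. Spermatocyte and spermatid markers differed between the fractions. In control mice, all 15 spermatocyte, 12 round spermatid and 11 elongating spermatid markers tested were lower in the Sertoli fraction than in germ cells. Over all genes 36.5% were lower. Of these markers 4, 4 and 1 were well above background on no control Sertoli array. A marker dim on the Sertoli arrays was kept through the germ arrays alone, which favours a lower Sertoli level in advance. Spermatogonia markers were less uniform, with 8 of 11 called lower and 0 called higher (median -1.88), and 3 had a higher mean in the Sertoli fraction. Of 14 Sertoli markers tested, however, 5 were higher in the Sertoli fraction than in the germ fraction and 8 were lower, where 39.8% and 36.5% of all genes were, and Fshr, the receptor of follicle-stimulating hormone, was not well above background on any of the 6 Sertoli arrays. The names of the fractions below are therefore those of the labels. In such bulk fractions, fewer cells of a type and less RNA per cell cannot be told apart.

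Promoter sequences show one feature that several of these genes share. The windows run from 250 bases before to 50 bases after the transcription start (RefSeq, build GRCm38.p6), and 9 of the 10 genes, all but Foxj1, have at least 1, with 11 windows in all. The letters GTTGCC are a half-site, and so only a part, of the X-box bound by RFX factors such as Rfx2 and Rfx3. They were searched on both strands, where the other strand reads GGCAAC. This search was chosen after the windows had been seen. A match was present in 6 of the 9 genes, against 14.1% of the 27025 genes in the table (12.5% of 32851 windows). More than 1 match in a window was found in 0 of the 9 genes, against 1.17% of genes in the table. The 250 bases before the start are printed for the 5 genes with the match there, 5′ to 3′ on the strand of the gene, with the match in capitals.
Mcidas: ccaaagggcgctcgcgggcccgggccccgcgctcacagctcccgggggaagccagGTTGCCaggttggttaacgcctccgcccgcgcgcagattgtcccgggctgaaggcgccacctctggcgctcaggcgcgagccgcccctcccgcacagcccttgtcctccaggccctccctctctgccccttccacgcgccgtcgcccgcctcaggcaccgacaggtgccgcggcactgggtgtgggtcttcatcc
Ccno: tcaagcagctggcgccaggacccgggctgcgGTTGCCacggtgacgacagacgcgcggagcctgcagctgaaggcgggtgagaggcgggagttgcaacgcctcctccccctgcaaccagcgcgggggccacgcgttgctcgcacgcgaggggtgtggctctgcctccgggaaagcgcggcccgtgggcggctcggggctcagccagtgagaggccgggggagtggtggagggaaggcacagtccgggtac
Rfx2: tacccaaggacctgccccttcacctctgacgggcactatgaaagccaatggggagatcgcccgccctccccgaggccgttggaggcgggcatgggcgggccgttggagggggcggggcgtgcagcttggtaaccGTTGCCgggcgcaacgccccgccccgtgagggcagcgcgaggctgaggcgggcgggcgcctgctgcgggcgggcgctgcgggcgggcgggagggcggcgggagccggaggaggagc
Deup1: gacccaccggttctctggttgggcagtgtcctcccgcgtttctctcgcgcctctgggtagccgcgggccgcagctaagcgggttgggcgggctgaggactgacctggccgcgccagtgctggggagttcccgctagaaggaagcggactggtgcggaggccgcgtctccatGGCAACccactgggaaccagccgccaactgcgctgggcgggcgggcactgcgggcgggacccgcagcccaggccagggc
Ccdc78: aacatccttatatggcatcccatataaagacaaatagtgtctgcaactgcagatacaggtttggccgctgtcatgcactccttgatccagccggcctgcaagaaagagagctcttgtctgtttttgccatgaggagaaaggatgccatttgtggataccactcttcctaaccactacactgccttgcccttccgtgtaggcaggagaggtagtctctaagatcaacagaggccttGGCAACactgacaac
These stretches are chr13:112993618-112993867 (plus strand) for Mcidas, chr13:112987552-112987801 (plus) for Ccno, chr17:56831009-56831258 (minus) for Rfx2, chr9:15627847-15628096 (minus) for Deup1 and chr17:25786330-25786579 (plus) for Ccdc78. The first base of the match stood at position -195 in Mcidas, -219 in Ccno, -116 in Rfx2, -79 in Deup1 and -15 in Ccdc78. In Rfx3 the match began at position 32 after the start, and 30 bases around it (chr19:28011118-28011147, minus strand) are shown for comparison with Rfx2.
Rfx3: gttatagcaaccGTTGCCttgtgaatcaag
Windows of Gmnc, Myb and Cdc20b did not hold these letters, and neither did the other window of Deup1. The short recognition site of the p53 family (a motif of 10 letters), whose response element TAp73 also recognises, was in none of the 11 windows, against 8.36% of all windows in the table. A match is a description of the letters and not evidence of binding, and no match says only that the letters are not in the window.

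The first comparison asks whether these genes differ between TAp73 knockout and control mice. In germ cells, none of the 8 genes tested passed the threshold, an adjusted p of 0.05 in limma with Benjamini-Hochberg adjustment over all genes, where 0.22% of all genes did. Differences of knockout minus control ran from -0.52 (Deup1) to 0.11 (Mcidas) with a median of -0.12, against a median of -0.04 over all genes, and 6 of the 8 were below 0. In limma 1 of the 8 had an unadjusted p under 0.05, as did 1839 of the 25035 genes. The 8 intervals below state how large a difference these arrays leave possible for each gene.

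**Figure D1:**
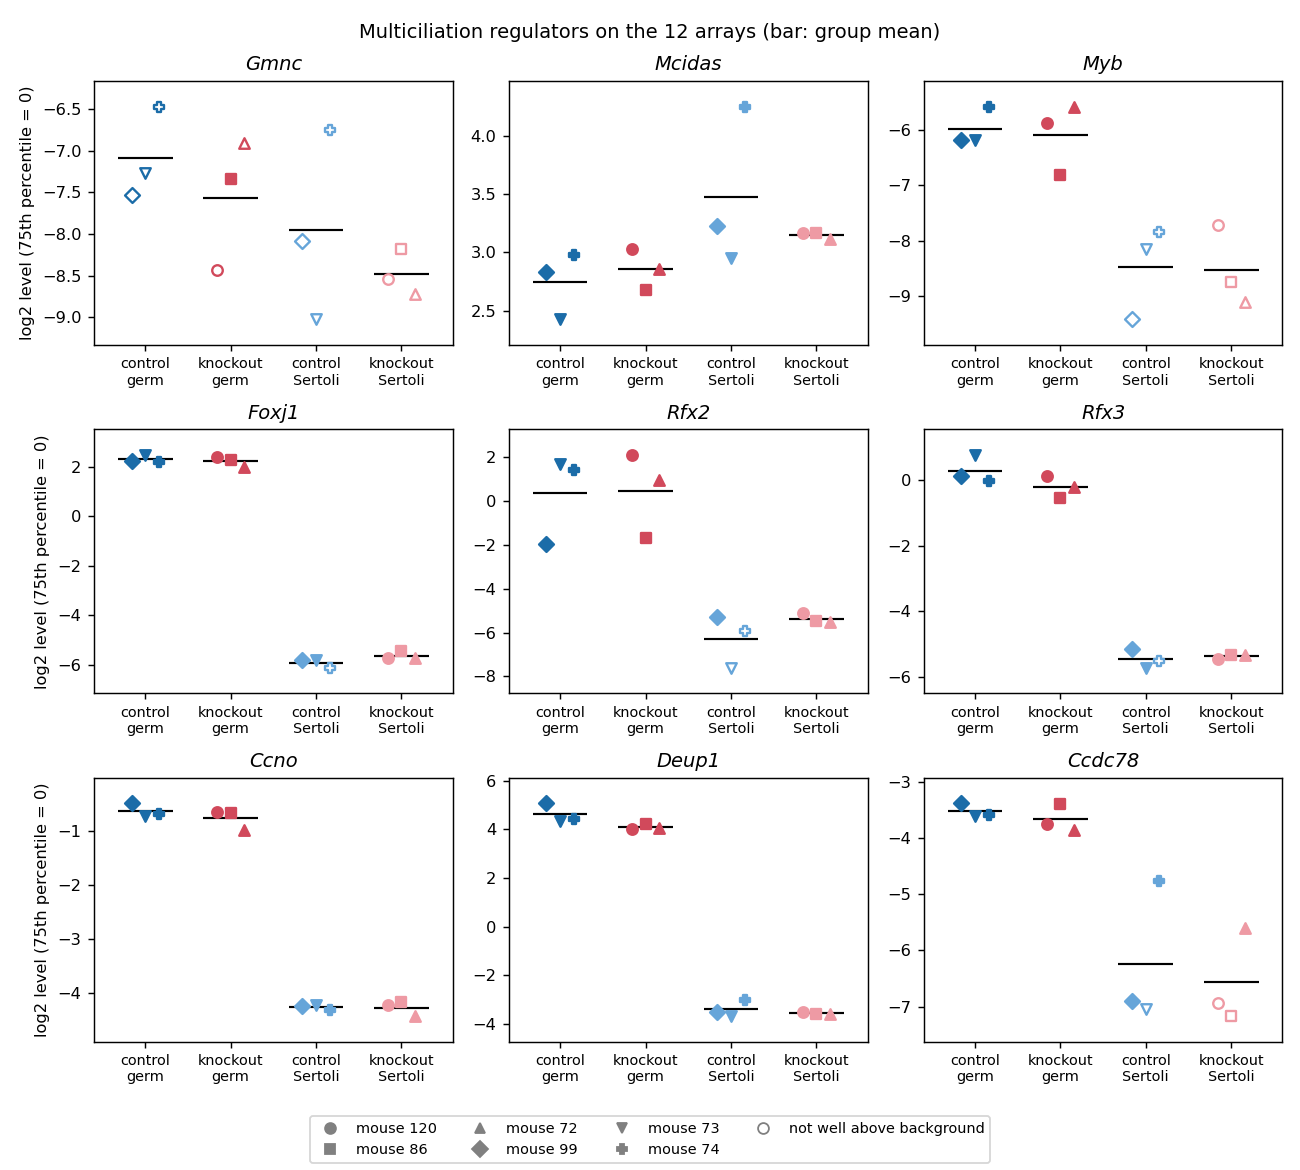
Log2 level of 9 regulators (75th percentile of the array set to 0) on each of the 12 arrays, by group of 3 mice, with a marker shape per mouse, open markers where the probe was not well above background and a bar at the group mean. Each panel has its own scale. Myb, Foxj1, Rfx2, Rfx3, Ccno, Deup1 and Ccdc78 are lower in the Sertoli fraction, as 36.5% of all genes were in limma in control and 37.1% in knockout mice. Knockout and control points overlap in most panels, and Rfx2 is low in the germ cells of mice 86 and 99.

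Gmnc, the geminin-like factor at the head of the programme, gave almost no signal. Its probe was well above background on 1 of the 12 arrays, the germ array of knockout mouse 86 at -7.35, and its other levels lay between -9.02 and -6.47. Gmnc therefore entered the test only in the alternative with no filter on dim probes, where it was not called in any comparison.

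Mcidas, the geminin-family partner of E2f4 and E2f5 that commits a cell to multiciliation, was well above background on all 12 arrays. In germ cells it stood at 3.03, 2.68 and 2.86 in knockout mice 120, 86 and 72 and at 2.83, 2.43 and 2.98 in control mice 99, 73 and 74. The groups overlapped, and the difference was 0.11 ± 0.30 (SE, n = 3 per group; 95% interval -0.55 to 0.77; limma adjusted p = 0.997). Sertoli levels were 3.17, 3.17 and 3.12 in knockout and 3.23, 2.96 and 4.25 in control mice. The high value belonged to mouse 74, whose array was the dimmest, and the difference was -0.33 ± 0.30.

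Myb, a transcription factor of proliferating progenitors that also promotes early multiciliation, was measured in germ cells only. It stood at -5.86, -6.81 and -5.58 in knockout and -6.18, -6.18 and -5.57 in control germ cells, which overlapped (difference -0.10 ± 0.49, 95% interval -1.19 to 0.98). On all 6 Sertoli arrays Myb was not well above background.

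Foxj1, the master regulator of motile cilium genes, had one of the narrowest intervals. Its germ levels were 2.39, 2.27 and 1.99 in knockout and 2.23, 2.48 and 2.19 in control mice. The groups overlapped with a difference of -0.08 ± 0.18 (95% interval -0.48 to 0.31; limma adjusted p = 0.997). In the Sertoli fraction it stood far lower, at -5.71, -5.46 and -5.72 in knockout and -5.81, -5.82 and -6.12 in control mice, where 1 of the 3 control arrays was not well above background. All 3 knockout arrays were above all 3 control arrays there, which held for 1.86% of all genes. The difference of 0.28 ± 0.18 did not pass the test (95% interval -0.11 to 0.68; limma adjusted p = 0.9997).

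Rfx2, the RFX factor needed for spermatid flagella as well as for motile cilia, varied more between mice than between genotypes. Its germ levels were 2.11, -1.69 and 0.97 in knockout mice 120, 86 and 72 and -1.97, 1.68 and 1.41 in control mice 99, 73 and 74. Mice 86 and 99 thus lay at least 2.66 below the other 4 on the log2 scale, 1 mouse in each genotype. The difference was 0.09 ± 1.09 (95% interval -2.33 to 2.51), and within slides, each of which holds 1 knockout and 1 control mouse, it was 4.08, -3.37 and -0.44. These arrays therefore do not fix the direction of an Rfx2 difference in germ cells. Sertoli levels of Rfx2 were -5.12, -5.48 and -5.54 in knockout and -5.31, -7.60 and -5.94 in control mice, with 2 of the 3 control arrays not well above background.

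Other genes showed the same split of the germ arrays. Of 25035 genes, 746 (2.98%) were lower in both mice 86 and 99 than in each of the other 4 germ samples by more than 1 on the log2 scale and 6 were higher by more than 1. This count was made after the values of Rfx2 had been seen. The genes whose levels were most like those of Rfx2 over the 12 arrays, and which share the split because they were picked for that likeness, were Pkdrej, a sperm surface receptor (Pearson r = 0.994), Abcc3, a membrane transporter (r = 0.993), and Rogdi (r = 0.992). Pkdrej stood at -3.72 in mouse 86 and -4.28 in mouse 99 against -1.54 to -0.63 in the other 4 germ samples. The control Sertoli array of mouse 73 was the lowest of the Sertoli arrays for each of these 4 genes.

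**Figure D2:**
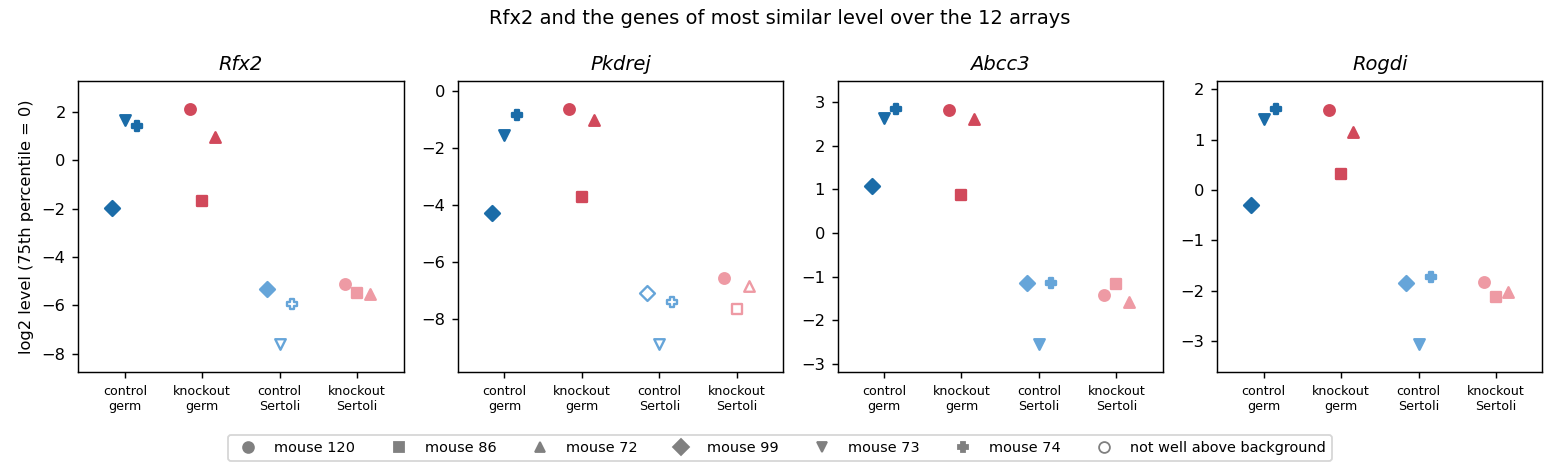
Log2 level (75th percentile of the array set to 0) of Rfx2 and the 3 genes with the highest Pearson correlation to it over the 12 arrays, by group, with a marker shape per mouse and open markers where the probe was not well above background. In all 4 panels the germ samples of mice 86 and 99 lie below the other 4 germ samples.

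Rfx3, the RFX factor of ciliated epithelia and nodal cilia, has 3 probes. On the brightest, germ levels were 0.13, -0.55 and -0.22 in knockout and 0.11, 0.76 and -0.02 in control mice. The ranges overlapped, and the difference of -0.50 ± 0.25 did not pass the test (95% interval -1.06 to 0.06; limma adjusted p = 0.778). Within slides it was 0.02, -1.31 and -0.20. The other probes gave -0.54 ± 0.91 and 0.08 ± 0.82 in germ cells. The Sertoli arrays on the brightest probe read -5.45, -5.35 and -5.33 in knockout and -5.14, -5.72 and -5.50 in control mice (difference 0.08 ± 0.25).

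Among the centriole genes, Ccno, a cyclin-like protein that governs centriole amplification, had the smallest standard error. Germ levels were -0.66, -0.68 and -0.98 in knockout and -0.50, -0.74 and -0.69 in control mice, and Sertoli levels -4.23, -4.18 and -4.43 against -4.24, -4.22 and -4.31. Both pairs of groups overlapped, with differences of -0.14 ± 0.16 (95% interval -0.49 to 0.22) and -0.02 ± 0.16 (95% interval -0.38 to 0.33).

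Deup1, the scaffold of the deuterosome on which new centrioles form, was the one gene whose knockout germ samples lay entirely on one side. Its brightest probe read 4.00, 4.20 and 4.06 in knockout germ cells and 5.06, 4.34 and 4.43 in control germ cells. All knockout values were below all control values, as was so for 9.14% of all genes. The difference was -0.52 ± 0.23 (95% interval -1.04 to -0.01; limma unadjusted p = 0.0461) and did not pass the adjusted test (limma adjusted p = 0.664). It was -1.06, -0.14 and -0.37 within the 3 slides, so slide 1 gave the widest gap. That slide holds the youngest mouse of each genotype and also the only control titled WT, and these cannot be told apart. The 2 dimmer Deup1 probes gave -0.32 ± 0.54 and -0.32 ± 0.72, with groups that overlapped. Sertoli levels on the brightest probe were -3.52, -3.57 and -3.59 in knockout and -3.49, -3.67 and -2.99 in control mice (difference -0.18 ± 0.23).

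Ccdc78, a coiled-coil protein of the deuterosome, stood at -3.74, -3.40 and -3.85 in knockout and -3.38, -3.60 and -3.60 in control germ cells. These ranges overlapped (difference -0.14 ± 0.57, 95% interval -1.39 to 1.11). On the Sertoli arrays it was -6.93, -7.17 and -5.60 in knockout and -6.91, -7.04 and -4.77 in control mice, and the higher value in each group came from slide 3.

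In the Sertoli fraction none of the 8 genes passed the knockout test either, where 0% of all genes passed in limma. Differences ran from -0.33 to 0.90, the latter for Rfx2, with a median of -0.04 against -0.10 over all genes. At an unadjusted p under 0.05, limma gave 0 of the 8 genes and 756 of the 25035. The test of whether the knockout difference itself differed between the fractions called none of the 8 either (0.00799% of all genes), with interaction terms from -0.44 (Mcidas) to 0.82 (Rfx2). At an unadjusted p under 0.05, limma gave 0 of the 8 and 1146 of the 25035 genes for this term.

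**Figure D3:**
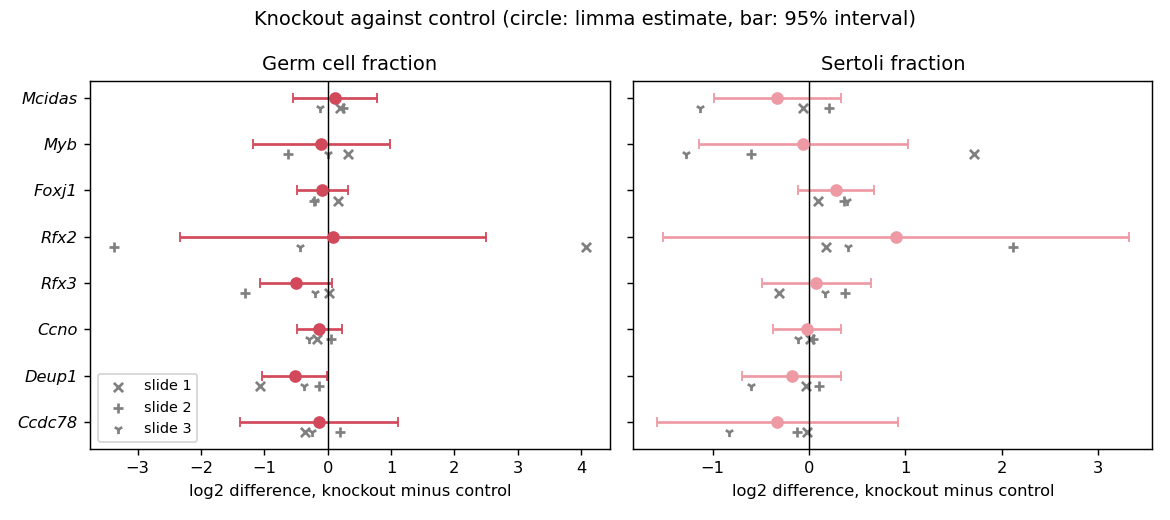
Log2 difference of knockout minus control in the germ fraction (left) and the Sertoli fraction (right) for 8 regulators, with the limma estimate as a circle, its 95% interval as a bar and the difference within each of the 3 slides in gray. In germ cells 7 of the 8 intervals span 0 and that of Deup1 ends at -0.01, and in the Sertoli fraction all 8 span 0. The Rfx2 values within slides run from -3.37 to 4.08 in germ cells.

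Markers of other cells were measured in the same germ samples. All 14 Sertoli markers tested had a higher mean in knockout than in control germ samples (median difference 0.55). So did all 5 Leydig markers tested (median 1.34) and 9 of 10 macrophage and leukocyte markers (median 0.91). The median difference over all genes was -0.04. None of these markers passed the threshold in limma, where 0.22% of all genes did. The summed signal of the Leydig markers, as a log2 level, ran from 2.79 to 3.67 in knockout and 1.27 to 2.63 in control germ samples. For the Sertoli markers it ran from 6.80 to 7.30 against 6.40 to 6.82, which overlap, and for macrophage and leukocyte markers from 0.86 to 1.42 against -0.22 to 0.67. Of the spermatid markers, 11 of 12 of round and 10 of 11 of elongating spermatids had a lower mean in knockout germ samples, with medians of -0.28 and -0.22. The summed level of the elongating spermatid markers was 9.07 to 9.34 in knockout and 9.21 to 9.53 in control germ samples. The part of this makeup in the differences of Deup1 and Rfx3 was not tested. Of 12 listed markers of efferent duct and epididymis, where multiciliated cells could come from, 8 were tested, since the rest were too dim to be kept. The 8 were thus selected for signal. They had 5 of 8 higher means and 3 of 8 lower ones, and none of the 8 passed in limma. In control germ samples 6 of the 8 were well above background on all 3 arrays and Esr1 and Lrp2 on none, while Esr1 was so on 2 of the 3 knockout germ arrays.

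The second comparison sets the fractions against each other within each genotype. In control mice all 8 genes tested differed between the fractions in limma, but so did 76.3% of all genes. Of the 8, 7 were lower in the Sertoli fraction (36.5% of all genes were) and Mcidas was higher (39.8% were). In knockout mice 7 of the 8 passed, all lower in the Sertoli fraction, where 75% of all genes passed and 37.1% were lower. Myb and Ccdc78 were kept for the test only because they were well above background on the germ arrays. Keeping genes in this way favours a lower Sertoli level in advance, so the counts of lower genes are not independent of it. The median difference of Sertoli minus germ fraction over the 8 was -4.68 in control and -4.33 in knockout mice, against 0.21 and 0.09 over all genes.

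Of the transcription factors, Foxj1 had the widest gap. In control mice its Sertoli level was 298-fold below its germ level (log2 difference -8.22 ± 0.18, limma adjusted p = 1.09e-10) and 231-fold lower in knockout mice (-7.85 ± 0.18, adjusted p = 1.44e-10). Within single mice the Foxj1 difference ran from -8.31 to -7.72. Rfx2 differed by -6.66 ± 1.09 in control mice (limma adjusted p = 0.000182), where 1 of the 3 Sertoli arrays was well above background, and was 57.3-fold lower in knockout mice (-5.84 ± 1.09), and its range within mice, from -9.28 to -3.34, was the widest of the 8 genes. Without the controls titled het, which leaves mouse 99 alone as control, the Rfx2 difference in control mice was -3.34 and did not pass (limma adjusted p = 0.0968). It was -8.32 without mouse 99 and -5.34 without mouse 73, and the knockout difference was -6.87 without mouse 86 and -5.15 without mouse 120. Rfx3 was 53.4-fold lower in control mice (-5.74 ± 0.25) and 35.8-fold lower in knockout mice (-5.16 ± 0.25) on its brightest probe, which was well above background on 2 of the 3 control and all 3 knockout Sertoli arrays. A second Rfx3 probe, not well above background on any of the 6 Sertoli arrays, was lower there in both genotypes, with differences of -3.22 ± 0.82 in control and -3.52 ± 0.82 in knockout mice (limma adjusted p over all probes = 0.00397 and 0.00233). The third Rfx3 probe was also lower in control mice (-2.32 ± 0.91, limma adjusted p = 0.0384), but it read -3.33 on the Sertoli array of knockout mouse 120, above its germ levels of -6.18 to -5.25, and the difference in knockout mice did not pass (-0.21 ± 0.91, limma adjusted p = 0.847). Myb was at least 3.55-fold lower in control and at least 3.66-fold lower in knockout mice. These bounds set its germ mean against the larger, on each Sertoli array, of its own signal and the lowest signal called well above background. With normexp background correction the Myb difference turned to 1.05 in control mice (limma adjusted p = 0.280) and was -0.58 in knockout mice (adjusted p = 0.589), so neither passed. The gaps of the other 3 factors kept their direction and passed under normexp, but in control mice they narrowed to -5.67 for Foxj1, -3.72 for Rfx2 and -3.46 for Rfx3. In knockout mice they were -6.79, -4.99 and -4.21. With the mean over the kept probes of each gene, Rfx3 differed by -3.76 in control and -2.96 in knockout mice and passed in both.

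Mcidas was the exception among the 8. Its levels of 2.96 to 4.25 in the Sertoli fraction of control mice overlapped those of 2.43 to 2.98 in germ cells, and the difference was 0.73 ± 0.30 (95% interval 0.07 to 1.39; limma adjusted p = 0.0440). It was positive in 3 of 3 control mice, from 0.40 to 1.27 within mice. The call was lost in 15 of 23 alternative settings, with adjusted p up to 0.237, and without the Sertoli array of mouse 74 the difference was 0.35 (limma adjusted p = 0.147). In knockout mice all 3 Sertoli values, 3.12 to 3.17, lay above all 3 germ values, 2.68 to 3.03, as in 41.4% of all genes, and the difference of 0.30 ± 0.30 did not pass (limma adjusted p = 0.388). With median scaling Mcidas passed in knockout mice too (1.15, limma adjusted p = 0.000799). That scaling raised the median of all genes from 0.09 to 0.94 in the same comparison, and from 0.21 to 0.88 in control mice. In size, then, the 2 Mcidas differences were 0.73 and 0.30, where those of Foxj1 were 8.22 and 7.85.

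The centriole genes were all lower in the Sertoli fraction. Deup1 was 255-fold lower in control mice (-7.99 ± 0.23, limma adjusted p = 2.58e-10) and 200.2-fold lower in knockout mice (-7.65 ± 0.23). Its 2 dimmer probes were well above background on all 6 germ arrays and on 1 of the 6 Sertoli arrays at most. Ccno was 12.3-fold lower in control mice (-3.62 ± 0.16) and 11.3-fold lower in knockout mice (-3.50 ± 0.16), and its Sertoli signal stayed well above background on all 6 arrays. Under normexp the control differences of Deup1 and Ccno were -6.93 and -2.19, and with median scaling the knockout differences were -6.79 and -2.65, all of which passed in limma. Ccdc78 was 6.56-fold lower in control mice (-2.71 ± 0.57, limma adjusted p = 0.00105) and 7.48-fold lower in knockout mice (-2.90 ± 0.57), with 3 of the 6 Sertoli arrays not well above background. The Ccdc78 difference shrank to -0.10 in control mice with normexp background correction (limma adjusted p = 0.911) and was -1.52 in knockout mice (adjusted p = 0.0965), and without mouse 74 it was -3.48 in control mice.

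**Figure D4:**
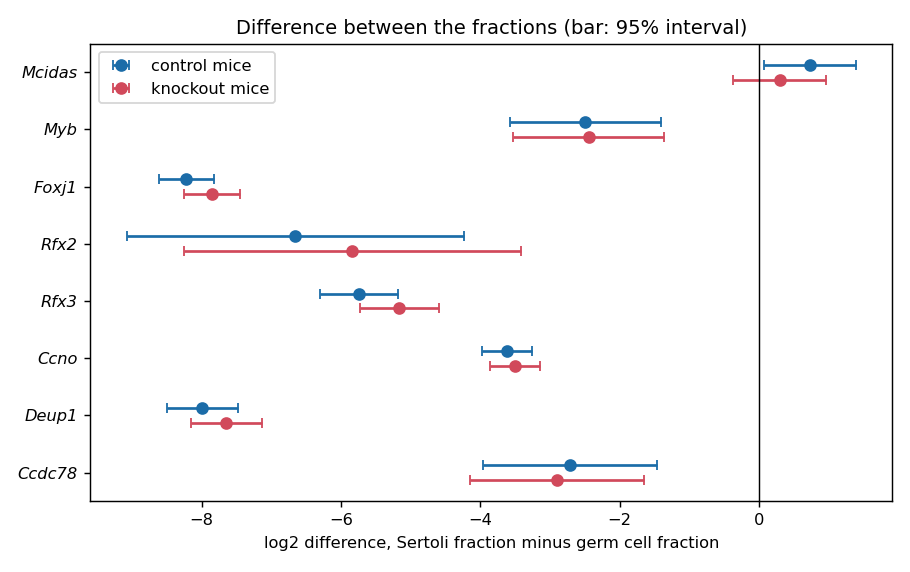
Log2 difference of the Sertoli minus the germ cell fraction for 8 regulators in control and knockout mice, with the limma estimate and its 95% interval. Foxj1 and Deup1 lie near -8, Mcidas is the one gene above 0, and the control and knockout intervals overlap for every gene shown.

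The other genes of the pathway were followed in 4 lists taken from general knowledge, but with earlier results of these data known. Any list gene dim on the Sertoli arrays was kept through its germ arrays alone, which favours a lower Sertoli level in advance. None of their 75 tested genes passed the knockout test in germ cells or in the Sertoli fraction. Over all genes, 0.22% passed in germ cells and 0% in the Sertoli fraction. Between the fractions of control mice, 25 of 26 tested ciliary genes downstream of Foxj1 and the RFX factors were lower on the Sertoli side and none was higher, against 36.5% lower and 39.8% higher of all genes, with a median of -6.92 against 0.21 over all genes. Spag6l, of the central pair of the axoneme, was at least 3914-fold lower, Spag16, its partner, at least 1820-fold lower, Ccdc113, well above background on 1 of the 3 control Sertoli arrays, had a difference of -11.68 ± 0.50 and Tekt1, a tektin of the axonemal doublets, of -10.76 ± 0.56. Rsph4a, a radial spoke head protein, was the one that did not pass (-0.25 ± 0.38). It is named here after its value was seen. In knockout mice 24 of the 26 were lower, with a median of -6.35, against 37.1% lower and a median of 0.09 over all genes.

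For the next 3 lists, the shares over all genes in control mice were 36.5% lower and 39.8% higher. Genes of centriole and deuterosome assembly were mixed, with 15 of 22 lower and 3 higher in Sertoli than in germ samples of control mice, and a median of -1.77. Odf2, of the centriolar appendages and of the sperm tail, stood at -6.84 ± 0.16, Ccp110, a cap of the centriole end, at -4.82 ± 0.24, Cep63, the paralogue of Deup1 that serves the centrosome, at -4.19 ± 0.24 and Plk4, the kinase that starts centriole duplication, at -4.12 ± 0.49. Of the cell cycle regulators that multiciliating cells reuse, 9 of 15 were lower and 4 higher. Ccna1, the cyclin of meiosis, differed by -11.19 ± 0.31 with 1 of the 3 control Sertoli arrays well above background and the mitotic kinase Aurka by -3.83 ± 0.23, Fbxo43, an inhibitor of the anaphase-promoting complex, was at least 8.34-fold lower, and the cyclin-dependent kinase inhibitor Cdkn1a was higher by 4.83 ± 0.20. Of 12 transcription partners, 7 were lower and 2 higher. Rfx4 differed by -5.23 ± 0.61 and Mybl1, the paralogue of Myb that drives meiosis, by -3.66 ± 0.42 with 1 of 3 such Sertoli arrays, Foxn4 was at least 13.6-fold lower, and Mycl, well above background on 1 of the 3 control germ arrays, was higher by 5.22 ± 0.56. The same lists in knockout mice gave 16 lower and 3 higher of 22 centriole genes, 9 and 4 of 15 cell cycle regulators and 6 and 3 of 12 transcription partners. Over all 25035 genes, 37.1% were lower and 9491 genes were higher in that comparison.

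In the knockout test the list values of smallest p did not pass. In germ cells these were 1.0 ± 0.50 for Trp73 (limma adjusted p = 0.753), 0.65 ± 0.20 for Cdkn1a (adjusted p = 0.318), -0.40 ± 0.19 for the centriole protein Poc1b (adjusted p = 0.725) and 0.40 ± 0.20 for the tubulin-binding Tppp3 (adjusted p = 0.760). Among the ciliary genes on the Sertoli side, the adenylate kinase Ak7 of motile cilia had 1.21 ± 0.25 (limma adjusted p = 0.481), with 1 of 3 control and 3 of 3 knockout arrays well above background. The next were Spag16 at -1.05 ± 0.29, with no Sertoli array well above background, and Lrrc6, a factor of dynein arm assembly, at -1.08 ± 0.36, well above background on 2 of 3 control and none of the knockout arrays (limma adjusted p = 0.9997 for both). The medians of the ciliary list were -0.15 in germ cells and -0.20 in the Sertoli fraction, against -0.04 and -0.10 over all genes. Elongating spermatid markers had a median of -1.12 in the same Sertoli comparison, with 10 of 11 lower and none past the threshold, and their part in it was not tested.

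**Figure D5:**
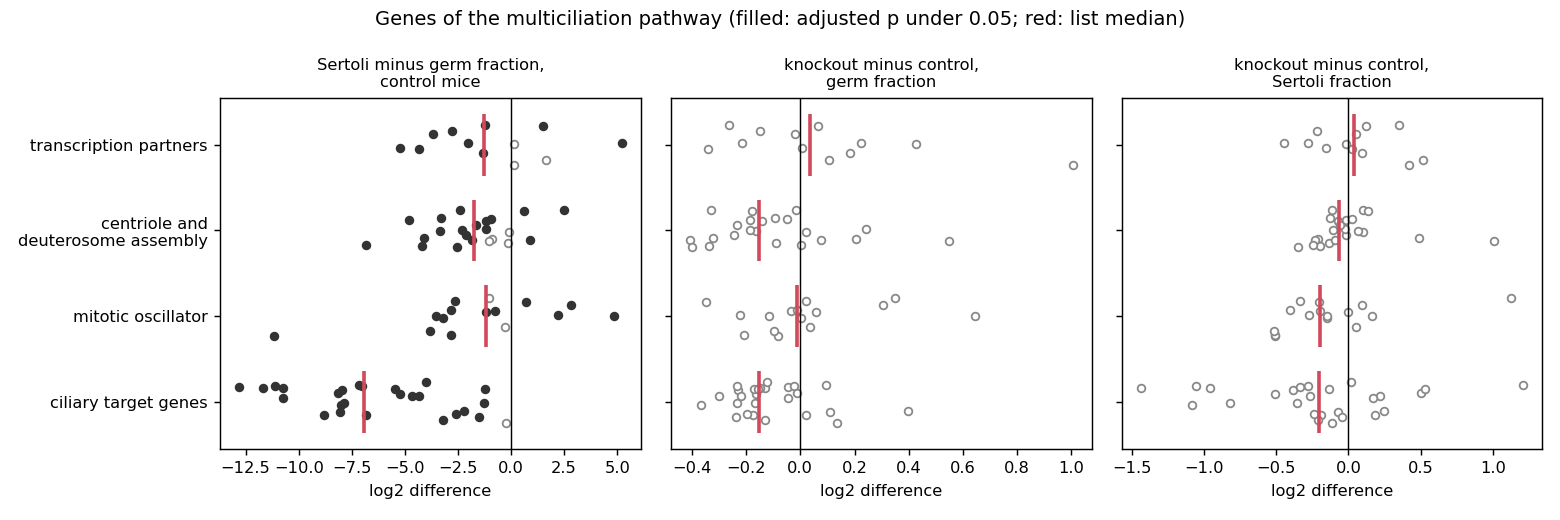
Log2 difference of each tested gene in 4 lists of the multiciliation pathway between the fractions of control mice (left) and between knockout and control mice in the germ (middle) and Sertoli (right) fractions, with filled points at an adjusted p under 0.05 in limma and the list median in red. Filled points appear in the left panel alone, where the median of the ciliary genes is -6.92. The horizontal scales differ between panels.

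Ccno, Mcidas and Cdc20b are neighbours on chromosome 13, in that order in the RefSeq gene table, with no tested gene between them. Ccno, which was lower in the Sertoli fraction, and Mcidas, which was not, thus lie side by side. Of the 3 tested genes on each side of the run, Gpx8, an endoplasmic reticulum peroxidase, was higher in the Sertoli fraction of control mice by 7.48 ± 0.17 and Gzmk, a granzyme, by 2.18 ± 0.38, and the RNA helicase Mtrex was lower (-1.66 ± 0.25). Plpp1, Dhx29 and Gzma did not pass, with differences of 0.34, -0.42 and -0.79. None of the 6 passed the knockout test in either fraction, where 0.22% of all genes did in germ cells and 0% in the Sertoli fraction.

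Likeness of level over the 12 arrays divided the regulators into those with many similar genes and those with few. Of 15782 genes compared, 3463 had a Pearson r above 0.95 with Foxj1, and the closest were Slc22a14 (r = 0.9997), Cfap161 (r = 0.9995) and Asb4 (r = 0.9993). Similar counts were found for Ccno (3503, closest Grtp1, Sptbn4 and Spag4), Deup1 (3577, closest Defb33, H2bc22 and Tescl) and Rfx3 (3369, closest Hgh1, Gsdmc4 and Hspa1l). Ccdc78 had 571 (closest Chrna1, Vmn2r89 and Nxpe2) and Rfx2 had 376. Myb had 33, led by its paralogue Mybl1 (r = 0.968), Dnah11 (r = 0.962) and Mrpl51 (r = 0.962). On the Sertoli arrays Myb was never well above background, and Mybl1 was so on 1 of 3 in each genotype. The Myb values there lie near background, which limits its correlations. Mcidas had 4, led by Zfp663 (r = 0.976), Proser3 (r = 0.967) and Pdcd4 (r = 0.958). The correlations rest on 12 arrays that share mice, slides and the gap between the fractions, and are given as a description.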

How the data were processed

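Per the labels' protocols, total RNA was labelled with Cy3 and hybridised to 1-colour Agilent arrays. Per the file headers, Agilent Feature Extraction 10.7.3.1 read the images. The deposited intensity used is the processed signal, already corrected for background and not scaled between arrays. The log2 values that the authors deposited as a table served as an alternative. Its scaling is not given in the sources used here, and the submitters' processing notes name limma. The array grid names build mm9, so RefSeq GRCm38.p6 gave names, gene order and promoter windows only. Control spots (1377 of 44397) and outlier spots were left out, and 26049 probes were named by accession while 13380 kept the name in the file.

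Probes had to be well above background on every array of some group of 3 (30538 kept), and the brightest kept probe stood for a gene. Groups were taken from the source names. Group means over all 12 arrays were fitted with limma 3.58.1 (R 4.3.3) on log2 values, with Benjamini-Hochberg adjustment over 25035 genes and a threshold of 0.05. The fit was tested on simulated data. "At least" folds set the brighter mean against, on each array, whichever is larger of the dim probe's signal and the lowest signal called well above background. A fold without these words, where only some arrays were above background, uses the measured signal.

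The genes and lists were chosen with earlier results of these data known. All 10 regulators and Trp73 were named. From each list, up to 4 genes past the threshold with the largest difference were named, or those of smallest p where fewer passed, with the 3 tested genes on each side of the chromosome 13 run and the 3 of highest correlation per regulator. Fractions of one mouse come from one animal. Their deviations from the group means correlated with r from -0.16 (mouse 99) to 0.46 (mouse 74), and a consensus of 0.13. Background correction by normexp used the median spot signal (offset 50), in place of the mean signal planned. Chosen after seeing the data were the leaving out of the control Sertoli array of mouse 74 and of mice 86 and 99.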

Additional observations from a re-analysis of the deposited data

How the results depend on the processing

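The knockout comparisons and the interaction called none of the 8 genes in limma under any alternative run, with unadjusted counts given above, and leaving out each mouse gave 0 to 0. Between the fractions, leaving out each mouse gave 7 to 8 calls in control mice and 7 to 7 in knockout mice. The control count was 5 with normexp background correction and 3 of the 3 genes tested with probes well above background on all 12 arrays. With those probes the knockout count was 2 of 3. Fewer genes tested account for both of these counts. Under normexp, Myb in control mice turned to 1.05 (adjusted p = 0.280) and did not pass in knockout mice (-0.58, adjusted p = 0.589), nor did Ccdc78 in knockout mice (-1.52, adjusted p = 0.0965). The cause was not tested. Myb and Ccdc78 are dim in the Sertoli fraction. With mouse as a replicate block, fixed or random, the counts stayed 8 in control and 7 in knockout mice, and the block changed no call. Without mice 86 and 99, and without the control Sertoli array of mouse 74, the counts were 7 and 7, the call of Mcidas in control mice being the one lost.

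Other scalings moved the median of all genes in the control fraction comparison from 0.21 to 0.44 (quantile), 0.43 (the authors' deposited log2 values), 0.88 (median) and 0.85 (normexp). Higher and lower calls there went from 9967 and 9147 to 12768 and 7446 with median scaling, and to 10399 and 5435 with normexp. With median scaling Mcidas also passed in knockout mice (1.15, limma adjusted p = 0.000799), where the median of all genes went from 0.09 to 0.94. The count of all genes called in the germ knockout comparison was 55, of which 54 were higher. It lay between 3 and 130 with 1 mouse left out, and was 3 with normexp and 166 with a weight per array in limma. With only the groups of the comparison fitted it was 1, a lower gene. With only the mice of 8 months it was 1, a higher gene. The background beside that comparison is thus itself unsteady.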
